A study of Mus musculus with 10 samples.

Results

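The genes described are the mouse zinc finger genes named Zfp and a number that gave signal in embryonic stem cells of all 6 lines of the study. They were chosen by 2 measured values, detection and brightness: of 336 such genes on a one-colour Agilent array, those with a probe scored well above background on all 10 arrays were taken, leaving out Zfp42, Zfp57 and Zfp352. This left 278 genes, each represented by its brightest probe of that kind, out of 23717 genes tested. Detection and brightness are therefore no finding here. A further 55 genes were above background on fewer arrays: 19 on 0 arrays and 36 on 1 to 9. Just inside the rule were Zfp54, Zfp438 and Zfp800, with lowest intensities of 14.2, 14.7 and 16.8 units, and just outside it, on 9 arrays, Zfp711, Zfp395 and Zfp784, with 9.20, 15.9 and 12.1 units.

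Zfp is a naming class, not a single family. Most such genes encode C2H2 zinc finger proteins, in which each finger folds around a zinc ion and an array of fingers reads a stretch of DNA. Many carry a KRAB domain that recruits Trim28 and, through it, histone and DNA methylation enzymes, and in early embryos and embryonic stem cells several of them keep retroelements or imprinted genes silent. Their genes often lie in clusters that arose by repeated duplication. Others bind RNA, work on ribosomes or act as co-factors of signalling.

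Each group was 1 cell line, grown without feeder cells in serum with leukaemia inhibitory factor. Line JP-23 was wild-type with stably expressed Prdm14, a germ cell and pluripotency regulator known to repress DNA methyltransferase genes (2 arrays). Line JP-23+3b-3 expressed Prdm14 and Dnmt3b1 (2 arrays). Line 8bb was Dnmt3b-/- (2 arrays), line 36 Dnmt1-/- (1 array) and line 19-1 Dnmt1-/-Dnmt3a-/-Dnmt3b-/-, the triple knockout (1 array). Wild-type line J1 gave 2 arrays. The series asked what DNA demethylation by Prdm14 overexpression does to gene expression. A difference between groups is a difference between single lines. Nothing in the labels says that 2 arrays of a line came from different cultures, and the p-values below then cover array-to-array spread, which may be technical. The groups with 1 array were assumed to vary like the others.

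The probe of Prdm14 itself averaged -4.17 and -6.39 in the 2 lines labelled as expressing Prdm14, against 0.01 in J1, on the level scale defined below. It was not checked whether that probe lies in the introduced sequence. The probe therefore cannot show whether the introduced Prdm14 was expressed, and these lines are called Prdm14-labelled and Prdm14+Dnmt3b1-labelled. Dnmt3b averaged 5.02 and 4.13 in those lines and 1.66 in the Dnmt3b-/- line, against 7.59 in J1. All 3 Dnmt3b probes were lower in the line labelled as also expressing Dnmt3b1 than in the Prdm14-labelled line. What those probes cover was not checked either, so they cannot show whether the introduced Dnmt3b1 was expressed. The comparison of these 2 lines is therefore one of labels, and no gain of Dnmt3b1 is shown by it. Dnmt1 was at -2.68 in the Dnmt1-/- line and -3.15 in the triple knockout, against 1.46 in J1. All 9 embryonic stem cell markers were above background on all 10 arrays. The summed trophoblast marker level was 2.81 to 2.89 in the Prdm14-labelled line and 6.97 to 7.04 in J1, with 3 of 6 markers above background on all arrays and 1 on 0. Each sum is of unlogged signal, and Krt18 and Krt8 make up most of this one. In the Prdm14-labelled line Krt8, Krt18, Krt7 and Cdx2 were lower than in J1. Hand1 was higher, at -1.24 and -1.38 against -3.44 and -3.10, as was Elf5, the 1 on 0 arrays. The summed fibroblast marker level was 0.38 to 0.47 in the Prdm14-labelled line and 1.88 to 2.02 in J1, with 4 of 7 above on all arrays and 1 on 0. It was 0.71 to 1.06 in the Prdm14+Dnmt3b1-labelled line, 3.25 to 3.26 in the Dnmt3b-/- line, 2.95 in the Dnmt1-/- line and 2.87 in the triple knockout. The trophoblast sum was 3.31 to 3.38, 7.72 to 7.80, 7.93 and 5.51 in these 4 lines. Of the fibroblast markers, Col1a1, Col1a2 and Thy1 were higher in the knockouts than in J1. Dcn was lower, at -1.93 and -1.67 in the Dnmt3b-/- line, -1.45 in the Dnmt1-/- line and -1.26 in the triple knockout, against -0.98 and -1.22 in J1. Pdgfrb was lower in the Dnmt1-/- line (-3.93) and the triple knockout (-3.63), against -3.23 and -2.99 in J1. Neural markers, 2 of 3 above on all arrays, summed to 0.53 to 0.71 and 0.76 to 0.82 in the Prdm14-labelled and Prdm14+Dnmt3b1-labelled lines and to 2.13 to 2.96 in the knockouts, against 2.47 to 2.69 in J1. Nes makes up most of this sum. In the Prdm14-labelled line Nes and Sox1 were lower than in J1, and Pax6 was higher, at -1.91 and -1.89 against -2.53 and -2.37. The triple knockout had Nes lower than J1, at 1.82 against 2.62 and 2.38, but Pax6 (-1.09) and Sox1 (-1.35) higher. In the Dnmt3b-/- and Dnmt1-/- lines Nes was higher than in J1, and Pax6 and Sox1 were lower. Primitive endoderm markers, none of 6 above on all arrays, summed to 1.25 in the triple knockout against -1.39 to -1.34 in J1. The part of these markers in the results below was not tested. Each Prdm14-labelled array was the only one on its slide, and in comparisons with that line the effect of the slide cannot be told apart from that of the line.

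All 278 genes matched a RefSeq gene, 264 by accession, and 10 have other symbols there (Zfp161 is now Zbtb14, Zfp191 is Zfp24 and Zfp192 is Zkscan8). A RefSeq promoter window (GRCm38.p6, 250 bases before to 50 after the start) was given for 231 of them. Of these, 182 had 1 start, and for a gene with more starts only the most upstream was used. CpG, a C followed by G on either strand, is the site of DNA methylation. These windows held a median of 14 CpG, against 13 for all protein-coding genes, and every one of them held at least 1, against 94.8% of protein-coding windows. Fewer than 5 CpG were found in 6.06% of the Zfp windows and in 29.1% of the protein-coding windows. The protein-coding genes were not limited to those detected on all 10 arrays, as the members were. The part of detection in these differences was not tested. Below are the 200 bases before the start of 5 genes with large differences and of Zfp14, one of the 5 steadiest by a probe that may also read related genes, with each CpG in capitals.
Zfp951: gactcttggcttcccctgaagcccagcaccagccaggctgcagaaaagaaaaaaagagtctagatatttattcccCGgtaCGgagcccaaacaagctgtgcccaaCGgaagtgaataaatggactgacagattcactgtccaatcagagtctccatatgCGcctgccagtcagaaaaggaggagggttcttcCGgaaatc
Zfp229: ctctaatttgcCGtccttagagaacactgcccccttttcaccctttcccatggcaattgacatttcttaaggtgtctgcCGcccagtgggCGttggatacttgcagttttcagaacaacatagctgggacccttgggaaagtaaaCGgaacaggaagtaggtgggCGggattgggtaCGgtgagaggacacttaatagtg
Zfp629: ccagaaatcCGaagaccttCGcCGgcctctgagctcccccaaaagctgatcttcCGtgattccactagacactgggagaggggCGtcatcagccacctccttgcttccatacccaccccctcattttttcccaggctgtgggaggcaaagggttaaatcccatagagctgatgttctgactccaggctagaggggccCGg
Zfp128: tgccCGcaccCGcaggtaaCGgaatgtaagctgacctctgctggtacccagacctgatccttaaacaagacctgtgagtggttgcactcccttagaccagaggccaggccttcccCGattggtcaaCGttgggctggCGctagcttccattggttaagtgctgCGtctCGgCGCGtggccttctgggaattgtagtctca
Zfp54: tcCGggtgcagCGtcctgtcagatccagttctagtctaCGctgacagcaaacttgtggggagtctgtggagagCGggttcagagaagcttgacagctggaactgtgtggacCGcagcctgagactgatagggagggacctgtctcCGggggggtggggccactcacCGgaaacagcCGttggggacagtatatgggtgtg
Zfp14: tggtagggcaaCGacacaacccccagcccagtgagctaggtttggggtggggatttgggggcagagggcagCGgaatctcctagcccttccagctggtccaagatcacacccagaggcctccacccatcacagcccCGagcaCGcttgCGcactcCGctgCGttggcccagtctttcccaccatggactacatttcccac
The windows shown are chr5:104860069-104860268, minus strand, for Zfp951, chr17:21733524-21733723, plus strand, for Zfp229, chr7:127615273-127615472, minus strand, for Zfp629, chr7:12880978-12881177, plus strand, for Zfp128, chr17:21423027-21423226, plus strand, for Zfp54, and chr7:30051397-30051596, minus strand, for Zfp14 (GRCm38.p6).

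The full windows of Zfp951, Zfp229, Zfp629 and Zfp54 hold 8 CpG each and that of Zfp128 holds 17. Zfp951 has 2 starts and Zfp629 and Zfp54 have 3 each, and their other starts are not described here. Among members with 5 to 14 CpG, 34 of 104 were higher and 19 lower in the Prdm14-labelled line than in J1, with a median difference of 0.15. Among those with 15 or more, 25 of 113 were higher and 22 lower, with a median of -0.02. Among the 14 with fewer than 5, 3 were higher, with a median of 0.21. All genes tested, of any CpG content, were called higher in 21% and lower in 18.7% of cases. In the triple knockout the classes of 5 to 14 and of 15 or more had 11 higher and 21 lower, and 14 higher and 24 lower, than in J1, and that of fewer than 5 had 3 lower, beside 13.9% and 14.6% of all genes tested. The counts are a description and were not tested against each other.

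A level is the log2 signal minus the 75th percentile of its array, and a gene is called different at a Benjamini-Hochberg adjusted p under 0.05 over all 23717 genes in a limma fit of the 10 arrays. Over the 6 lines, 169 of 278 members varied by the F test of that fit, or 60.8%, beside 57.9% of all genes tested. The range of the 6 group means had a median of 0.83 over members and 0.79 over the 18189 genes above background on all arrays. Replicate arrays differed by medians of 0.11 to 0.15 over members. Single arrays stood apart for Zfp712, which differed by 2.78 between the 2 Dnmt3b-/- arrays, and for Zfp108, which differed by 2.21 between the 2 J1 arrays. Most members thus varied by less than 1 log2 unit between lines. The other 91 (32.7%) varied by more, beside 36.0% of the genes above background on all arrays.

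Zfp951 had the widest range, 5.06. Its probe lies on chr5:105242289-105242348 (mm9, minus strand). It stood at 1.56 and 1.42 in the Prdm14-labelled line, -0.94 and -1.08 in the Prdm14+Dnmt3b1-labelled line, -2.07 and -2.08 in the Dnmt3b-/- line, 0.61 in the Dnmt1-/- line and 0.42 in the triple knockout, against -3.44 and -3.70 in J1. Every other array lay above both J1 arrays, and the 6 groups did not overlap. The Prdm14-labelled line exceeded J1 by 5.06 ± 0.12 (SE), or 33.4-fold, with an adjusted p of 1.91e-05. The Prdm14+Dnmt3b1-labelled line was lower than the Prdm14-labelled line by a difference of -2.50 ± 0.12 (adjusted p = 0.000627). The excess over J1 was 4.18 in the Dnmt1-/- line, 3.99 in the triple knockout and 1.498 in the Dnmt3b-/- line, all called. A second probe of Zfp951, not above background on all arrays, gave 4.30, 3.49, 3.16 and 0.29 in the same 4 comparisons with J1. In the Prdm14+Dnmt3b1-labelled line it gave 1.27 (adjusted p = 0.162), against 2.56 by the brightest probe. In the Dnmt3b-/- line it was not called (adjusted p = 0.772), and averaged over its probes Zfp951 differed by 0.90 in the Dnmt3b-/- line (adjusted p = 0.101).

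Zfp229 (chr17:21883816-21883875, mm9, plus strand) came second, with a range of 3.28. Its levels were 1.84 and 1.77 in the Prdm14-labelled line, 1.73 and 1.85 in the Prdm14+Dnmt3b1-labelled line, 0.36 and 0.30 in the Dnmt3b-/- line, 0.42 in the Dnmt1-/- line and 0.19 in the triple knockout, against -1.25 and -1.69 in J1. The Prdm14-labelled line was 9.69-fold above J1 (3.28 ± 0.16, adjusted p = 7.72e-05). Unlike Zfp951, the 2 transgenic lines overlapped each other. A second probe gave 3.29 for the Prdm14-labelled line and was called in the same direction in all 5 comparisons with J1.

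Zfp629 (chr7:134750549-134750605, mm9, minus strand) was high in the knockouts and not in the transgenic lines. It stood at -1.73 and -2.05 in the Prdm14-labelled line, -2.32 and -1.70 in the Prdm14+Dnmt3b1-labelled line, 0.83 and 0.82 in the Dnmt3b-/- line, 0.92 in the Dnmt1-/- line and -0.40 in the triple knockout, against -2.05 and -2.54 in J1. The Dnmt3b-/- line exceeded J1 by 3.12 ± 0.26 (adjusted p = 0.00169), the Dnmt1-/- line by 3.22 and the triple knockout by 1.89. The Prdm14-labelled line lay below the Dnmt3b-/- line, by a difference of -2.71 ± 0.26 (adjusted p = 0.000844).

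Zfp128 (chr7:13477131-13477190, mm9, plus strand) was at 0.62 on the Dnmt1-/- array and between -2.83 and -0.84 on the other 9. It exceeded J1 by 3.09 ± 0.29 in the Dnmt1-/- line (adjusted p = 0.00169), and the triple knockout lay below the Dnmt1-/- line by a difference of -2.42 (adjusted p = 0.0129). Its other probe did not follow: it differed by -0.75 in the Dnmt1-/- line from J1 and by 2.98 in the triple knockout from the Dnmt1-/- line, neither called. The mean over probes turned the comparison of the triple knockout with the Dnmt1-/- line round, to 0.28.

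**Figure D1:**
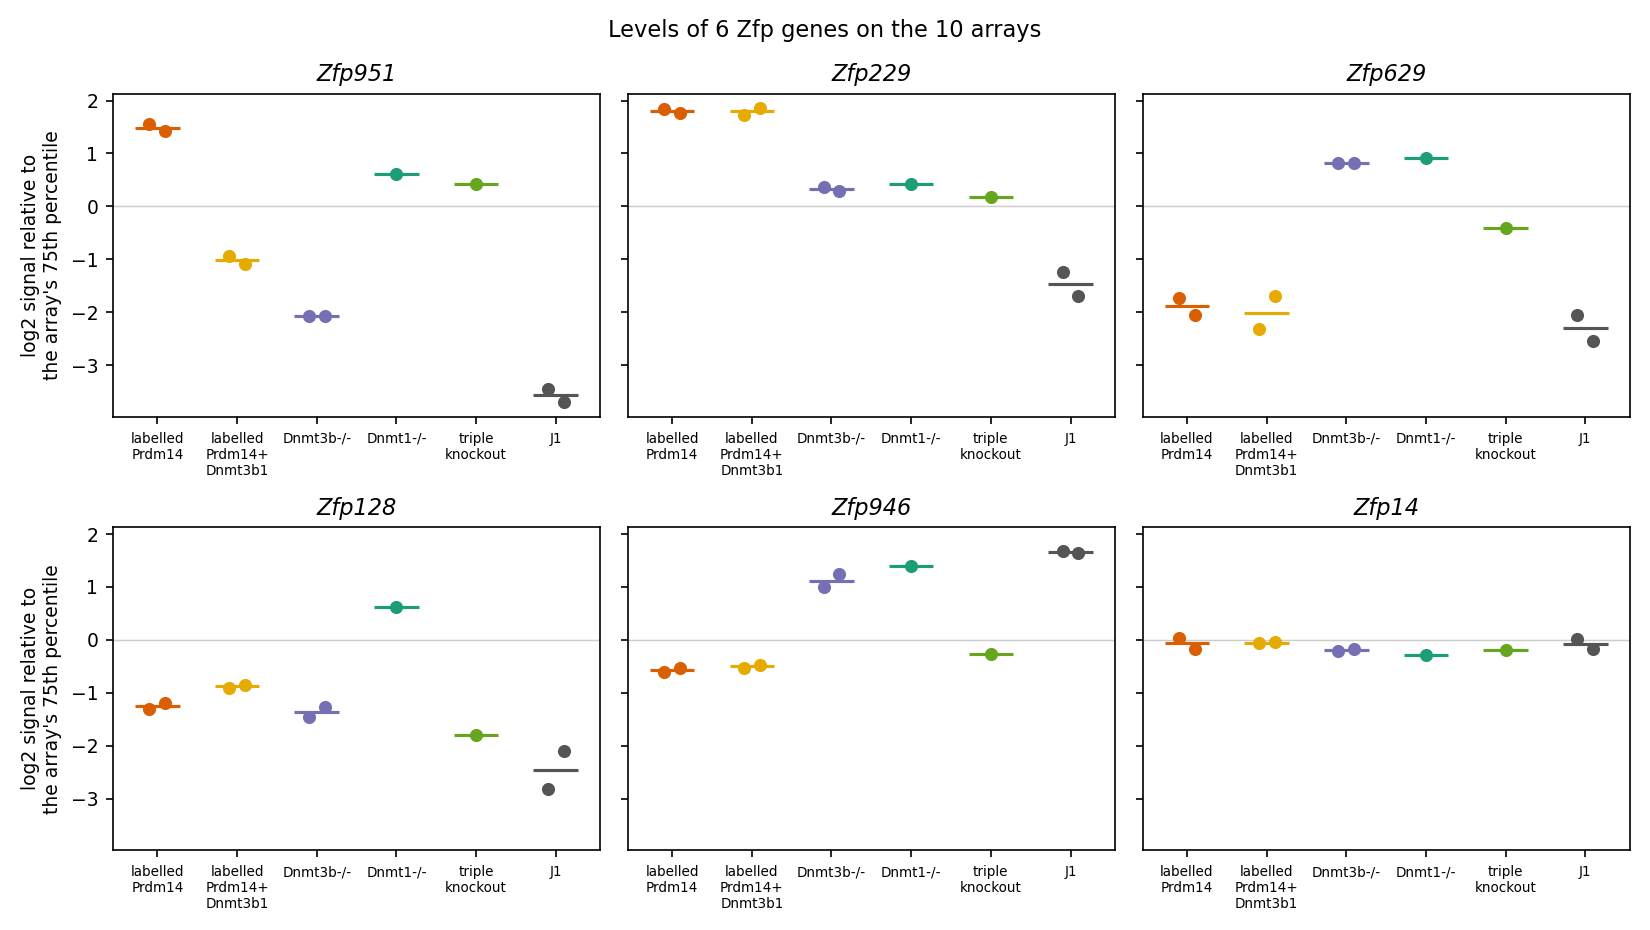
Levels of 6 Zfp genes (log2 signal relative to the array's 75th percentile, vertical axis) on the 10 arrays by line (horizontal axis), with a dot per array and a bar at the group mean. Zfp951, Zfp229, Zfp629 and Zfp128 each had their lowest mean in J1, Zfp946 had its highest mean there, and Zfp14, whose probe encodes the finger linker shared by many genes, varied over 0.23 between group means.

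In the Prdm14-labelled line, 71 of the 278 Zfp genes were higher than in J1 and 50 lower, or 25.5% and 18.0%, beside 21% and 18.7% of all genes tested. Past 1 log2 unit were 21 higher and 15 lower, beside 8.89% and 7.83% of all genes tested. The median difference was 0.07 over members and -0.03 over all genes tested. The 121 called fell to 72 without replicate 1 of the Prdm14-labelled line and to 77 without its replicate 2. For these and all later counts from repeated fits, the share of all genes tested is not given. Such counts describe how stable a count of members is, and no trait of Zfp genes.

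The highest after Zfp951 and Zfp229 were Zfp600 (1.79), Zfp819 (1.51), Zfp865 (1.41), Zfp459 (1.40), Zfp3 (1.35), Zfp219 (1.33), Zfp59 (1.28) and Zfp882 (1.28). Zfp865 had other probes above background on all arrays at 0.17 (not called) and 0.59, and averaged 0.72 over its probes, and 1 other probe of Zfp59 gave 0.46 (not called). Zfp819, a KRAB protein reported to restrain endogenous retroelements, stood at 2.81 and 2.92 in the Prdm14-labelled line against 1.36 and 1.36 in J1 (SE 0.09, adjusted p = 0.000147). Zfp600 stood at 3.09 and 3.12 against 1.11 and 1.53 in J1. Zfp219, known as a partner of Sox9 in cartilage, stood at 0.94 and 0.79 against -0.39 and -0.53 in J1. None of these groups overlapped.

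Zfp54 had the lowest difference, -2.71 ± 0.25 (adjusted p = 0.000632), with -3.79 and -4.22 in the Prdm14-labelled line against -1.29 and -1.31 in J1. It is the member nearest the detection limit. Zfp946 followed (-2.23 ± 0.11, adjusted p = 7.72e-05), with -0.61 and -0.53 against 1.67 and 1.65 in J1. Zfp618, whose protein is a partner of Uhrf2, fell by 2.14 on the log2 scale, but its other probe, not above background on all arrays, differed by 0.13 and was not called. Zfp948 (-1.72), Zfp768 (-1.67), Zfp467 (-1.46), Zfp326 (-1.44), Zfp703 (-1.25) and Zfp185 (-1.20) were also lower. Zfp467 is known from adipocyte and osteoblast fate, Zfp326 from the coupling of splicing to transcription, and Zfp703 from repression in breast epithelium. Zfp800 (-1.57) was called as well, but its adjusted p was 0.080 without J1 replicate 2 and 0.0903 without replicate 1 of the Prdm14-labelled line. The other 19 of these 20 genes stayed called in every alternative run on them.

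**Figure D2:**
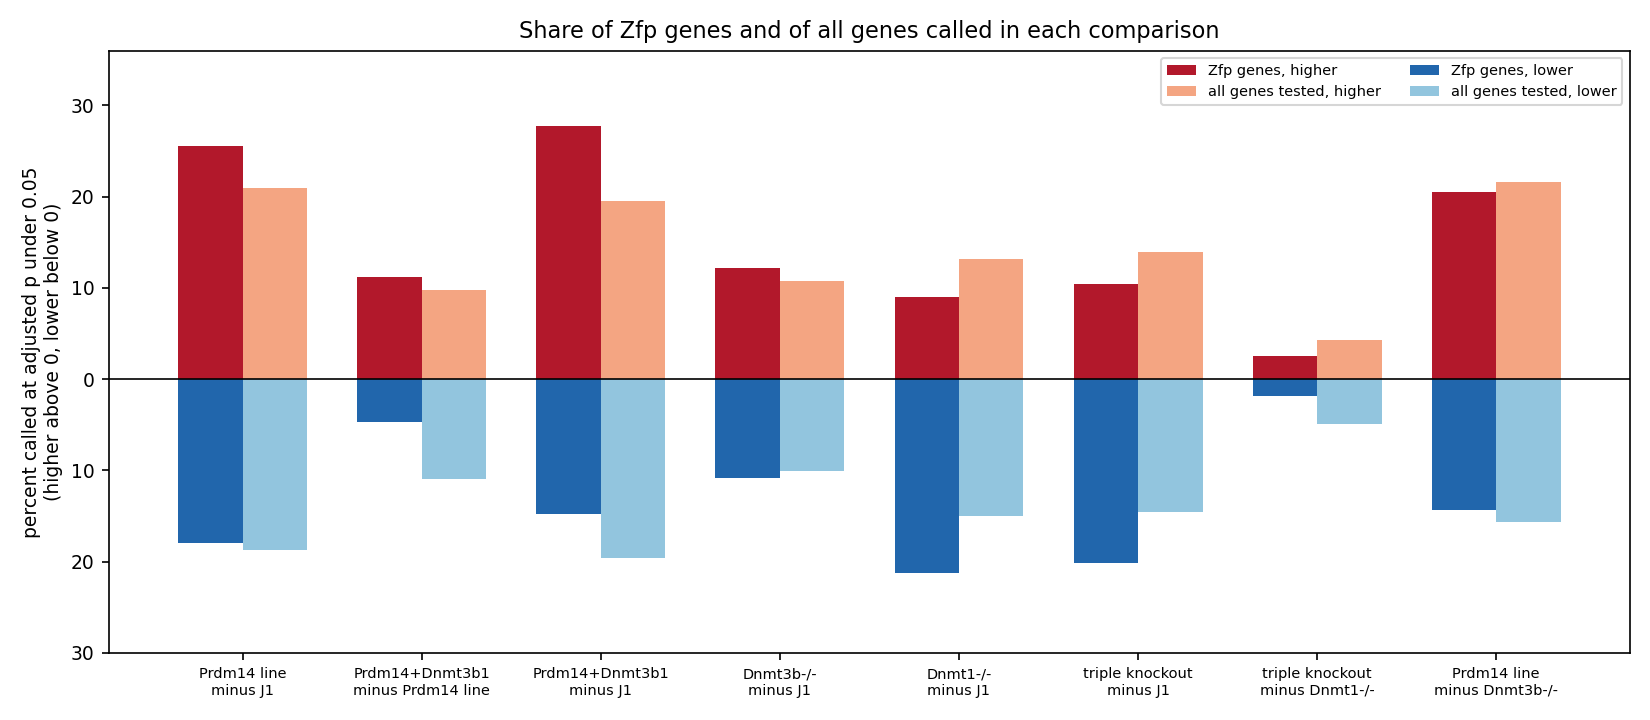
Percent called higher (above 0) and lower (below 0) at an adjusted p under 0.05 in 8 comparisons, for the 278 Zfp genes (dark) and all 23717 genes tested (light). Against J1, the share of Zfp genes called lower was 18.0% in the Prdm14-labelled line, 14.7% in the Prdm14+Dnmt3b1-labelled line, 21.2% in the Dnmt1-/- line and 20.1% in the triple knockout, beside 18.7%, 19.6%, 15% and 14.6% of all genes.

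Against the Prdm14-labelled line, the Prdm14+Dnmt3b1-labelled line had 31 higher and 13 lower members, 11.2% and 4.68%, beside 9.8% and 11% of all genes tested. The median difference was 0.03 over members and -0.02 over all genes. The count of 44 depended on single arrays: it was 9 and 12 without replicates 1 and 2 of the Prdm14-labelled line, 16 and 14 without those of the Prdm14+Dnmt3b1-labelled line, and 28 without either Dnmt3b-/- array. Called without any 1 array were Zfp365, Zfp750, Zfp951, Zfp397 and Zfp488, 5 of the 12 genes named by the rule.

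Zfp365, known from neurons and genome stability, stood at 4.46 and 4.48 in the Prdm14+Dnmt3b1-labelled line against 2.53 and 2.66 in the Prdm14-labelled line, a difference of 1.87 ± 0.10 (adjusted p = 0.000765). Both J1 arrays, at 3.59 and 3.69, lay between these 2 lines. Zfp750, a regulator of epidermal differentiation, stood at 0.15 and 0.09 against -1.31 and -1.26 in the Prdm14-labelled line, a difference of 1.41 ± 0.09, and J1 lay below both, at -2.49 and -2.30. Zfp488, known from oligodendrocyte differentiation, fell to 0.03 and 0.01 in the Prdm14+Dnmt3b1-labelled line, against 0.87 and 0.91 in the Prdm14-labelled line and 1.69 and 1.77 in J1. Zfp397 was lower by a difference of -0.99 ± 0.10, but another probe above background on all arrays gave -0.04 (adjusted p = 0.900), and the mean over probes -0.52.

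Against J1 the Prdm14+Dnmt3b1-labelled line had 77 higher and 41 lower members, 27.7% and 14.7%, beside 19.5% and 19.6% of all genes tested. The median difference was 0.05 over members and -0.06 over all genes. Both groups share slides, and the median over members was 0.08 within slide 1 and 0.05 within slide 2. The highest were Zfp229 (3.26), Zfp951 (2.56), Zfp750 (2.51), Zfp819 (1.77), Zfp3 (1.75) and Zfp59 (1.59). The lowest were Zfp946 (-2.15), Zfp488 (-1.71), Zfp467 (-1.67), Zfp948 (-1.46), Zfp800 (-1.37) and Zfp54 (-1.31). Zfp800 lost its call without J1 replicate 2 (adjusted p = 0.124) and without either array of the transgenic line (0.125 and 0.0531 for replicates 1 and 2).

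**Figure D3:**
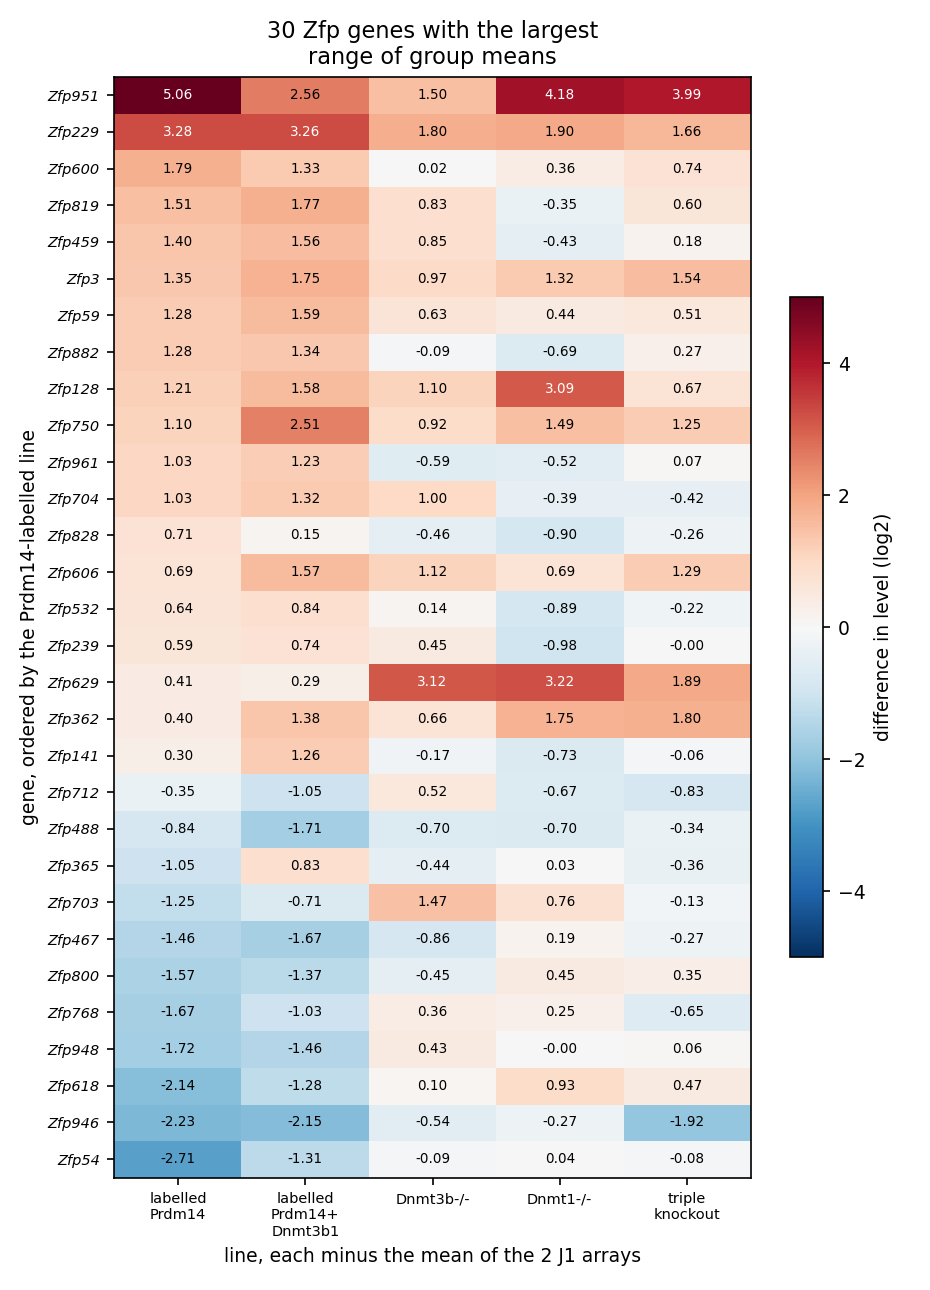
Differences in level (log2, colour and printed value) of 5 lines, each minus the mean of the 2 J1 arrays (columns), for the 30 Zfp genes with the largest range of group means (rows, ordered by the Prdm14-labelled line). Zfp951 and Zfp229 are above J1 in every column, while Zfp54 is at -2.71 and -1.31 in the 2 transgenic lines.

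The Dnmt3b-/- line had 34 higher and 30 lower members than J1, 12.2% and 10.8%, beside 10.8% and 10.1% of all genes tested. The median over members was -0.02 within each slide. With slide as a random block 106 were called, 50 higher and 56 lower. The count was 26 and 22 without Dnmt3b-/- replicates 1 and 2, and 29 and 31 without J1 replicates 1 and 2. Past 1 log2 unit were 8 higher and 1 lower, beside 3.7% and 2.31% of all genes tested. The 1 lower was Zfp131, at 1.75 and 1.93 in the Dnmt3b-/- line against 2.80 and 2.88 in J1 (-1.0004 ± 0.10, adjusted p = 0.00299). After Zfp629, Zfp229 and Zfp951 the highest were Zfp703 (1.47), Zfp672 (1.24) and Zfp192 (1.21). Zfp192, averaged over its probes, differed by 0.45 (adjusted p = 0.245). Zfp703 stood at 1.54 and 1.46 in the Dnmt3b-/- line against 0.13 and -0.08 in J1. In the Prdm14-labelled line it was at -1.35 and -1.10, a difference of -2.72 ± 0.12 from the Dnmt3b-/- line (adjusted p = 6.03e-05).

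The Prdm14-labelled and Dnmt3b-/- lines, compared directly, differed in 57 higher and 40 lower members, 20.5% and 14.4%, beside 21.6% and 15.7% of all genes tested. The count was 47 and 49 without replicates 1 and 2 of the Prdm14-labelled line, and 52 and 57 without those of the Dnmt3b-/- line. Higher were Zfp951 (3.56), Zfp600 (1.76), Zfp961 (1.63), Zfp229 (1.48), Zfp882 (1.37) and Zfp296 (1.17). Zfp961 and Zfp882 lie on chromosome 8, where all 1287 genes tested had a median difference of 0.47 in this comparison and the 21 members 0.20. The part of that shift was not tested. Zfp296, whose protein takes part in reprogramming to pluripotency, stood at 5.45 and 5.51 in the Prdm14-labelled line, against 4.30 and 4.32 in the Dnmt3b-/- line. Lower, besides Zfp703, Zfp629 and Zfp54, were Zfp618 (-2.25), Zfp948 (-2.15) and Zfp768 (-2.03).

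In the Dnmt1-/- line 25 members were higher than in J1 and 59 lower, 8.99% and 21.2%, beside 13.2% and 15% of all genes tested. The median difference was -0.29 over members, -0.14 over all genes tested and -0.20 over genes above background on all arrays. Past 1 log2 unit were 9 higher and 1 lower, beside 8.11% and 3.17% of all genes tested. The 1 lower was Zfp740 (-1.03 ± 0.16, adjusted p = 0.0082). With slide as a random block 135 were called, 33 higher and 102 lower, and without J1 replicate 2 the 84 called fell to 48. The share of all genes called in these repeats is not given, so neither change can be read as particular to Zfp genes. Higher, besides Zfp951, Zfp629, Zfp128 and Zfp229, were Zfp362 (1.75) and Zfp750 (1.49). Lower were Zfp239 (-0.98), Zfp828 (-0.90) and Zfp808 (-0.90). Zfp828 is now Champ1, a protein of chromosome alignment at mitosis, and stood at 0.00 in the Dnmt1-/- line against 0.78 and 1.02 in J1.

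The triple knockout had 29 higher and 56 lower members than J1, 10.4% and 20.1%, beside 13.9% and 14.6% of all genes tested. The median difference was -0.19 over members and -0.07 over all genes. Without J1 replicate 2 the 85 called fell to 47. Higher, besides Zfp951, Zfp629 and Zfp229, were Zfp362 (1.80), Zfp3 (1.54) and Zfp865 (1.48), whose other probes gave 0.48 and 0.56. Zfp946 stood at -0.26 in the triple knockout against 1.67 and 1.65 in J1 (-1.92 ± 0.13, adjusted p = 0.000649). Zfp597 (-1.08), Zfp131 (-1.06) and Zfp647 (-0.94) followed. Zfp871 (-1.20) had an adjusted p of 0.0564 without J1 replicate 1 and 0.0654 without replicate 2.

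The triple knockout and the Dnmt1-/- line, on 1 array each, differed in 7 higher and 5 lower members, 2.52% and 1.80%, beside 4.28% and 4.87% of all genes tested. Without either Dnmt3b-/- array, which enter only through the estimated spread, 7 members were called in place of 12. Both arrays lay on slide 1, and with slide as a random block 39 were called, 28 higher and 11 lower. Zfp882 (0.96), Zfp819 (0.95) and Zfp330 (0.91) were higher. Of the 7 higher, 3 lie on chromosome 8, Zfp882 among them. All 1287 genes tested on that chromosome had a median difference of 0.28 in this comparison, and its 21 members 0.22. The part of that shift in these calls was not tested. Zfp946 (-1.65) and Zfp772 (-1.48) were lower, and stayed called in every alternative run on them. Zfp946 was thus at -0.26 in the triple knockout and 1.39 in the Dnmt1-/- line.

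Because J1 is the shared partner of 5 comparisons, a shift of J1 alone appears in all of them. All 8 other arrays lay above both J1 arrays for 27 members (9.71%) and below them for 39 (14.03%), beside 7.33% and 10.8% of all genes tested. Higher than J1 in all 5 comparisons were 11 members: Zfp951, Zfp229, Zfp219, Zfp3, Zfp59, Zfp192, Zfp606, Zfp672, Zfp746, Zfp750 and Zfp787. Other probes of Zfp951, Zfp229 and Zfp219 went the same way in all 5. Another probe of Zfp787 was called lower in the 2 transgenic lines (-1.12 and -1.04). So was another of Zfp672, not above background on all arrays, in the Prdm14+Dnmt3b1-labelled line (-1.65). A probe of Zfp59 gave -0.41, -0.51 and -0.75 in the knockouts, not called, and another went the same way in all 5. The other probe of Zfp192 was called in none and gave -0.40 to 1.10. Lower in all 5 were 6 members: Zfp131, Zfp146, Zfp26, Zfp592, Zfp609 and Zfp825. Both lists are complete and were drawn up after the values were seen. The share of all genes tested that was called in all 5 was not counted. The 7.33% and 10.8% above are for arrays that do not overlap, which is another measure. Zfp131 was not called in the Prdm14-labelled line without either of its arrays or either J1 array (adjusted p 0.0777 to 0.136). Zfp592 is a subunit of a chromatin reader complex with Zfp687. It differed from J1 by -0.48, -0.60, -0.41, -0.42 and -0.59 in the 5 lines in the order above.

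By role, 25 of 28 genes on a list of embryonic stem cell and chromatin factors were measured. In the Prdm14-labelled line 8 were higher and 8 lower than J1, and in the Dnmt1-/- line 2 were higher and 8 lower. All genes tested were called in 21% and 18.7%, and in 13.2% and 15%. The medians were 0.15 and -0.25, beside -0.03 and -0.14 for all genes tested. Zfp281, which limits Nanog and helps cells leave naive pluripotency, stood at 3.45 and 3.38 in the Prdm14-labelled line, 3.32 and 3.22 in the Prdm14+Dnmt3b1-labelled line, 3.85 and 3.83 in the Dnmt3b-/- line, 3.53 in the Dnmt1-/- line and 3.45 in the triple knockout, against 4.004 and 4.10 in J1. All 8 other arrays lay below J1, and the difference was -0.64 ± 0.08 in the Prdm14-labelled line (adjusted p = 0.0023) and -0.60 in the triple knockout. Zfp296 (1.06) and Zfp318 (0.99) were higher and Zfp687 (-0.67) lower in the Prdm14-labelled line. Zfp423, a partner of SMAD proteins in BMP signalling, was higher in the Prdm14+Dnmt3b1-labelled line than in J1 (0.68) and lower in the Dnmt1-/- line (-0.71), as was Zfp462, a heterochromatin factor, in the Dnmt1-/- line (-0.80).

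Of 24 listed KRAB repressors with described targets, 20 were measured. In the Prdm14-labelled line 9 were higher and 1 lower, with a median of 0.34, and in the Dnmt1-/- line 2 were higher and 6 lower, with a median of -0.44. Over all genes tested 21% and 18.7%, and 13.2% and 15%, were called, with medians of -0.03 and -0.14. Zfp809, which silences retroviruses through their primer-binding site, stood at 0.66 and 0.60 in the Prdm14-labelled line, 0.84 and 0.81 in the Prdm14+Dnmt3b1-labelled line and 0.54 in the triple knockout, against -0.16 and -0.34 in J1. Its difference in the Prdm14-labelled line was 0.88 ± 0.09 (adjusted p = 0.000999). Zfp568, a repressor of a placental Igf2 transcript, stood at 3.05 in the triple knockout against 3.90 and 3.81 in J1 (-0.80 ± 0.12, adjusted p = 0.00718). Zfp932, a repressor of endogenous retroviruses, stood at 1.48 in the Dnmt1-/- line against 2.30 and 2.39 in J1 (-0.86 ± 0.09, adjusted p = 0.00266). Zfp266 (-1.20) was the 1 lower in the Prdm14-labelled line. The list was drawn up with earlier results of these data known, so these counts are no independent evidence.

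Of 13 listed genes for RNA, ribosome and protein modification roles, 10 were measured. Only Zfp326 was called, lower, in the Prdm14-labelled line, while the Prdm14+Dnmt3b1-labelled line had 1 higher and 4 lower than J1, beside 21% and 18.7%, and 19.5% and 19.6%, of all genes tested. Zfp622, a factor of ribosome assembly, was lower in the Prdm14+Dnmt3b1-labelled line by a difference of -0.59 ± 0.09 from J1 (adjusted p = 0.00328).

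The co-repressors through which KRAB proteins work are not members but bear on their function. Of 26 listed, 25 were measured, and 5 were higher and 3 lower in the Prdm14-labelled line than in J1, no larger a share than the 21% and 18.7% of all genes tested. Of single genes, Chd3, a remodeller of the NuRD complex, stood at 2.19 and 2.19 in the Prdm14-labelled line against 0.36 and 0.42 in J1 (1.80 ± 0.08, adjusted p = 5.61e-05). A pair of HUSH complex genes moved apart there: Mphosph8 was higher by 1.28 ± 0.12 and Pphln1 lower by a difference of -2.49 ± 0.29. In the Dnmt1-/- line 1 was higher and 7 lower, beside 13.2% and 15% of all genes tested. Trim28, the scaffold that KRAB domains bind, stood at 6.40 there against 6.99 and 6.87 in J1 (-0.53 ± 0.10, adjusted p = 0.0165).

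Along the genome, 70 members lie on chromosome 7, 33 on chromosome 17, 26 on chromosome 13 and 21 on chromosome 8. For the Prdm14-labelled line, members on chromosome 8 had a median difference from J1 of 0.34, and all 1287 genes tested there 0.40, so members such as Zfp882 and Zfp961 on that chromosome lie beside a shift of the whole chromosome. Its part in their difference was not tested. The 13 members on chromosome 11 had a median of 0.41 where all genes there had 0.00. In the Dnmt1-/- line their median was 0.14, with 5 higher, beside 13.2% of all genes tested. All 1745 genes tested on chromosome 11 had a median of 0.03 in that line. On the other chromosomes with at least 10 members both medians were negative in that line, for members and for all genes alike.

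**Figure D4:**
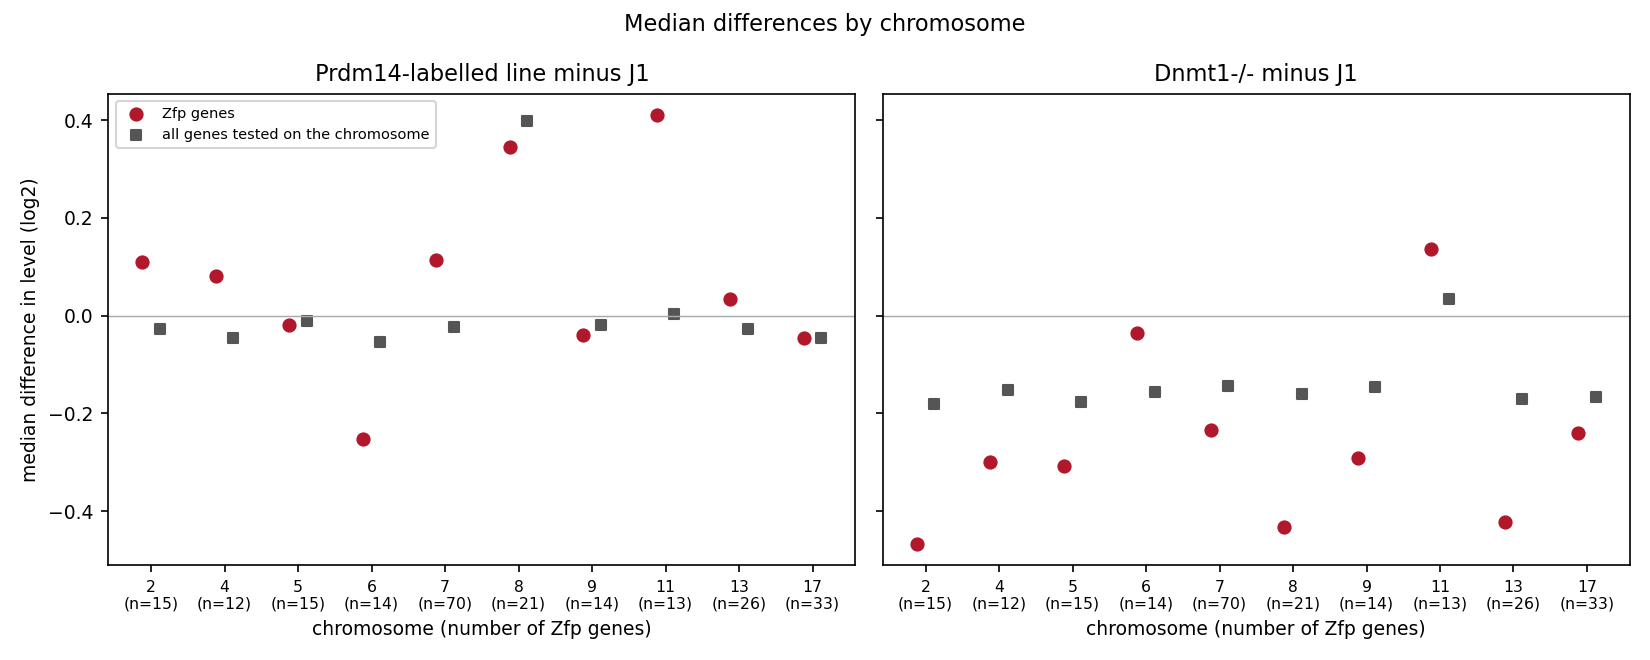
Median difference in level (log2, vertical axis) of Zfp genes (circles) and all genes tested (squares) on each chromosome with at least 10 Zfp genes (horizontal axis), for the Prdm14-labelled line (left) and the Dnmt1-/- line (right), each minus J1. Chromosome 8 is raised for both kinds of gene on the left, at 0.34 and 0.40.

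Joining members less than 500 kb apart gave 11 clusters of at least 5, with 100 members. The largest, on chromosome 17, held 18, of which 5 were higher and 7 lower in the Prdm14-labelled line than in J1, beside 21% and 18.7% of all genes tested. Zfp229 (3.28) and Zfp54 (-2.71) both lie in it, as do Zfp946 and Zfp948, so neighbours went both ways. A cluster of 13 on chromosome 13 had a median of 0.28 in the Prdm14-labelled line, with Zfp459 (1.40) the highest of 6 called. In the Dnmt1-/- line its median was -0.43, and 4 were called lower, beside 15% of all genes tested.

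**Figure D5:**
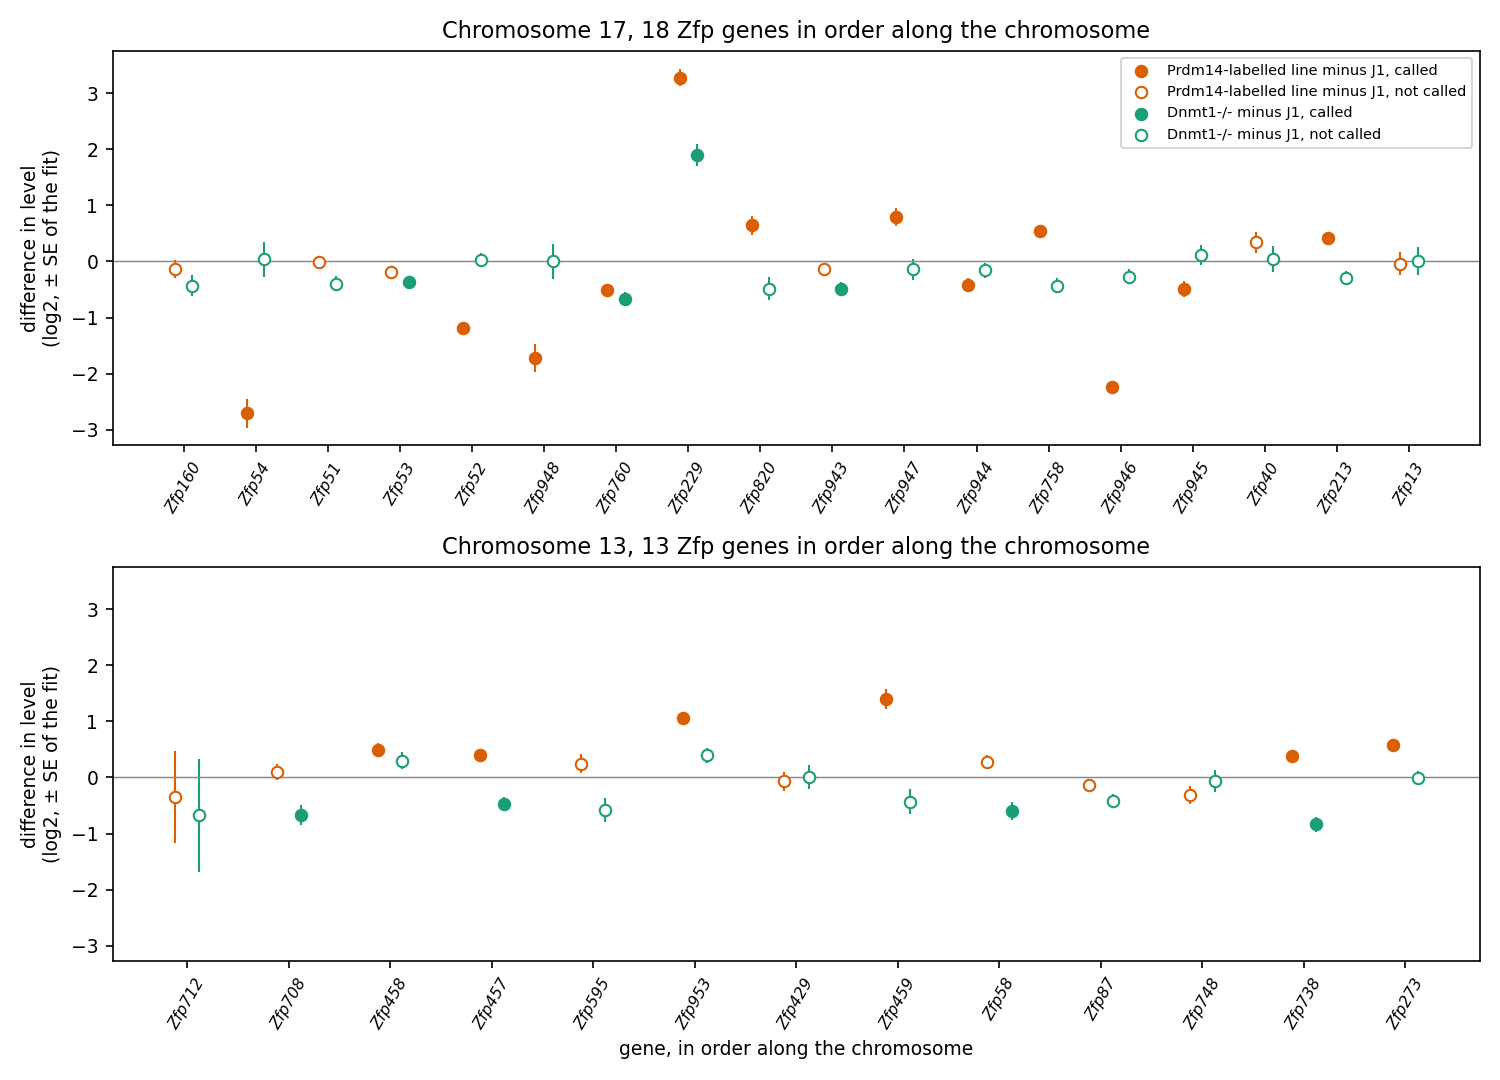
Differences in level (log2, ± SE of the fit, vertical axis) of the Zfp genes in the 2 largest clusters, in chromosome order (horizontal axis), for the Prdm14-labelled line (orange) and the Dnmt1-/- line (green), each minus J1, with filled points called at an adjusted p under 0.05. In the chromosome 17 cluster the orange points run from -2.71 for Zfp54 to 3.28 for Zfp229.

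Probes of 1 gene did not always give the same result. Of the genes called in the Prdm14-labelled line against J1, 58 had another probe, and 24 of these had one called in the same direction. In 13 of the 58 another probe had the opposite sign, called or not, and in 2 it was called. The 2 were Zfp74, at 0.57 by its brightest probe and -2.19 by another, and Zfp787, at 0.28 and -1.12. In the Prdm14+Dnmt3b1-labelled line they were joined by Zfp523, Zfp397 and Zfp672. The probes that represent 9 members encode the conserved linker between fingers, a sequence shared by many genes of the class, and their signal may include related genes. Zfp14, shown above for its steady level, and Zfp947 are among these 9.

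At the other end, 5 members varied least between lines. The ranges of group means were 0.15 for Zfp599, 0.20 for Zfp191, 0.23 for Zfp14, 0.23 for Zfp644 and 0.24 for Zfp472. Zfp14 lies in a chromosome 7 cluster of 12 members. In the Prdm14-labelled line 4 of these were higher and 1 lower than in J1, beside 21% and 18.7% of all genes tested. The 5 members with the brightest probes, Zfp628, Zfp408, Zfp947, Zfp622 and Zfp658, had ranges of 0.31, 0.42, 0.93, 0.60 and 0.76.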

How the data were processed

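Gene expression was measured on 10 one-colour Agilent arrays of mouse embryonic stem cells. The intensities deposited by the authors were made with Agilent Feature Extraction 10.7.3.1, per the file headers, and were not normalized between arrays. The log2 values that the authors deposited as a value table (every column with the same median) served as an alternative, with their exact scaling unstated. The submitters' processing notes name limma without a version.

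Here, control and outlier spots were left out and each array's 75th percentile of log2 intensity was subtracted. A probe stayed in where some group had it above background throughout, which left 33100. The number of arrays limits the precision. One limma model (limma 3.58.1, R 4.3.3; Python 3.11.15 for summaries) was fitted over 6 groups, with 4 residual and 1.73 prior degrees of freedom, and was tested on simulated data. Of 50 genes changed by each amount in the Prdm14-labelled line against J1, it recovered 1 at 0.5, 18 at 1, 25 at -1 and 37 at 2 log2 units. Recovery was lower in the triple knockout, with 1 array. A gene that is not called may thus still differ. Probe positions are mm9, per the file headers, and exons were not assigned. Protein sequences were not used here, so no description by protein class was made. Slide 1 held 1 array of each line but the Prdm14-labelled one, and slide 2 the other arrays of J1, the Prdm14+Dnmt3b1-labelled line and the Dnmt3b-/- line. For these 3 lines the replicate number is thus also the slide, and deviations of same-numbered arrays correlated at 0.209 to 0.231. With the Prdm14-labelled line, on other slides, they correlated at 0.0987 to 0.149, so the numbers were not taken as pairs over all lines and slide was tried as a block.

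The genes, lists and tests were chosen with earlier results of these data known. Genes were named as the 10 highest and 10 lowest called in the Prdm14-labelled line, the 6 highest and 6 lowest elsewhere, list members, extremes of range and signal, and those with opposed probes. Alternatives were background correction, scaling, the authors' values, filters, probe choice, slide and replicate blocks, the groups in the fit, single arrays left out, and members on shifted chromosomes left out.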

Additional observations from a re-analysis of the deposited data

How the results depend on the processing

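The counts of Zfp genes called differed by under 1.5 times in 123 of 159 repeats of the 9 counts. The share of all genes called in each repeat is not set beside the counts below, so they show no trait of Zfp genes. The 143 repeats of the median differences moved by less than the median SE of a single member's difference, 0.119 to 0.168. That is a wide bar for a median over 278 genes. With no filter on dim probes, 22 were called between the 2 transgenic lines, 30 in the Dnmt3b-/- line, 42 each in the Dnmt1-/- line and the triple knockout against J1, 7 between those 2, and 59 between the Prdm14-labelled and Dnmt3b-/- lines. With slide as a random block (correlation 0.457) the calls were 106 in the Dnmt3b-/- line (50 higher and 56 lower), 135 in the Dnmt1-/- line (33 and 102) and 39 between the triple knockout and the Dnmt1-/- line (28 and 11). The replicate block gave 71 calls between the 2 transgenic lines, and moved no other count by over 1.5 times, although only J1, the Prdm14+Dnmt3b1-labelled and the Dnmt3b-/- lines share slides by number. Slide as a fixed block, over slides 1 and 2, gave 86 calls in the Dnmt3b-/- line, 106 in the Dnmt1-/- line and 15 between the triple knockout and the Dnmt1-/- line. Fits of only the groups compared gave 27 calls between the 2 transgenic lines and 13 in the Dnmt3b-/- line. Leaving out single arrays gave 72 to 110 calls in the Prdm14-labelled line, 9 to 35 between the 2 transgenic lines, 91 to 110 in the Prdm14+Dnmt3b1-labelled line, 22 to 45 in the Dnmt3b-/- line, 48 to 68 in the Dnmt1-/- line, 47 to 66 in the triple knockout, 7 to 9 between the triple knockout and the Dnmt1-/- line, 47 to 90 between the Prdm14-labelled and Dnmt3b-/- lines, and 131 to 150 by the F test. Averaging the probes of a gene turned 3 differences round: Zfp457 in the Prdm14-labelled line (-0.0132), Zfp143 between the 2 transgenic lines (0.11) and Zfp128 between the triple knockout and the Dnmt1-/- line (0.28). Among the named genes, 3200 repeats kept the call, 606 lost it and 3 reversed. The causes were not tested. Genes near background, as Zfp54 in the Prdm14-labelled line, are limited by signal.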
